A study of Mus musculus with 24 samples.

Results

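DNA replication genes encode the proteins that mark and license origins, unwind the helix, copy both strands, join the pieces and supply the nucleotides. A set of 44 such genes was followed, of 55487 genes in the deposited table, and the members were taken by gene symbol from a list of origin, fork and nucleotide supply genes. All 44 symbols were found once each and passed the filter on low counts. The cells were mouse LSK progenitors, which lack lineage markers and carry Sca1 and KIT on their surface, a population that holds hematopoietic stem cells and multipotent progenitors. Cells of Tet-On-ME mice, which carry an inducible MLL::ENL fusion gene that was switched on in culture, were set against control cells, with 48 h of culture. The 6 groups of 4 libraries were ME and control cells at embryonic day 16 (E16, from fetal liver), at postnatal day 14 (P14, from bone marrow) and at 8 weeks (8wk, from bone marrow). The labels name neither the inducer, the promoter of the transgene nor the strain, and they do not say whether control cells received the inducer or whether a library is 1 animal or a pool.

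In a dividing cell, origins are licensed in G1 when the origin recognition complex, CDC6 and CDT1 load the ring of MCM2 to MCM7 onto DNA. At the start of S phase, CDC45 and the GINS complex join this ring and turn it into the moving helicase, and the polymerases, the PCNA clamp and the single-strand binding protein RPA assemble behind it. Many of these genes are induced together near the border of G1 and S phase, and E2F transcription factors are known to bind their promoters. In bulk RNA, fewer cells in S phase and less RNA of these genes in each cell cannot be told apart.

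Promoters were read for such sites. RefSeq gave a window of 250 bases before to 50 bases after the start, in build GRCm38.p6, for 35 of the 44 genes. The words TTTCCCGC, TTTGGCGC, TTTGCCGC and TTTCGCGC, which match the usual E2F site, were searched on both strands, and overlapping matches were counted. At least 1 of them stood in a promoter of 13 of the 35 genes (37.1%), against 2.61% of 27025 genes with a promoter in the table. The 13 genes were Orc1, Cdc6, Cdt1, Mcm3, Mcm5, Mcm6, Mcm7, Gins3, Pola1, Pold1, Pole2, Rfc3 and Lig1. The CCAAT box (CCAAT, the NF-Y word) was found in 22 of 35 genes (62.9%), against 41.1% of all genes, and the word TTTGAA, a cell cycle element of mitotic genes, in 5 of 35 (14.3%), against 20.2%. Within 150 bases before the start the E2F-type share was 20.0% of members and 1.44% of all genes. The 27025 genes were not limited to those that passed the count filter, as the 44 did. They were also not matched to the members for base content.

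Of the genes with E2F-type words, Orc1, Mcm3, Mcm5, Mcm6, Mcm7 and Lig1 were called lower in ME cells at every age, and Cdt1 and Pold1 at none. Orc2, Mcm10, Pola2, Rpa1, Rpa2, Chaf1b and Rrm1 had a window without such a word and were also called lower at every age. Whether the words go with the fall was not tested. Orc1, Mcm5, Mcm6 and Mcm7 are printed as examples of genes with the words, chosen after their values were seen. Mcm10 is printed because it fell by a similar amount to Orc1 with none of these words complete in its window. The Mcm10 window ends in TTTGGCG, the word TTTGGCGC without its last letter. The next base lies outside the window, so a match across its edge would not be seen. For Mcm7 the table holds 2 windows, of which the printed one has the words and the other has none. All run 5′ to 3′ on the strand of the gene, and capitals mark the E2F-type words. They lie at chr4:108579204-108579503 on the plus strand (Orc1), chr8:75109259-75109558 on the plus strand (Mcm5), chr1:128359656-128359955 on the minus strand (Mcm6), chr5:138171834-138172133 on the minus strand (Mcm7) and chr2:5012742-5013041 on the minus strand (Mcm10).
Orc1: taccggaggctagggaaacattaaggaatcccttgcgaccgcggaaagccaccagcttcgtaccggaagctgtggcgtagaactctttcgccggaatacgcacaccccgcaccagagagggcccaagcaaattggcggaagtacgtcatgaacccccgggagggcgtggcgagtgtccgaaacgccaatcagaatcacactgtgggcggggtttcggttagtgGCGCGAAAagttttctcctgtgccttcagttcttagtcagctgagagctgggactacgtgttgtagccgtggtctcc
Mcm5: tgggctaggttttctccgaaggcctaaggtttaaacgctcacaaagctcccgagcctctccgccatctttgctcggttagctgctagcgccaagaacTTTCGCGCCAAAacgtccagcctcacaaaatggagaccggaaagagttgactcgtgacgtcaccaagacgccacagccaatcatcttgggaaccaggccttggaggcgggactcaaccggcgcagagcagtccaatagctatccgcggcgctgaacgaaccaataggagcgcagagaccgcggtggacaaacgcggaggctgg
Mcm6: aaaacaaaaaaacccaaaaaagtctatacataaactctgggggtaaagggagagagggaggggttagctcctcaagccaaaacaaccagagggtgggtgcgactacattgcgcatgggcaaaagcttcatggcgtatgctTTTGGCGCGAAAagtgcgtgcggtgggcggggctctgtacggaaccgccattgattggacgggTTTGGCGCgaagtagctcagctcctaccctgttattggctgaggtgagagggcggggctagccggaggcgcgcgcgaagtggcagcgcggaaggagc
Mcm7: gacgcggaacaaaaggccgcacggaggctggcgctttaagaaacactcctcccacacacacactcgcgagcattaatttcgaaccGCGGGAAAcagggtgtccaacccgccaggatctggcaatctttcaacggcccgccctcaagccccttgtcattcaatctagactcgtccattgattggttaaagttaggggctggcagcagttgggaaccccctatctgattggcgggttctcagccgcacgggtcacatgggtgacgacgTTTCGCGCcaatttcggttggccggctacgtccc
Mcm10: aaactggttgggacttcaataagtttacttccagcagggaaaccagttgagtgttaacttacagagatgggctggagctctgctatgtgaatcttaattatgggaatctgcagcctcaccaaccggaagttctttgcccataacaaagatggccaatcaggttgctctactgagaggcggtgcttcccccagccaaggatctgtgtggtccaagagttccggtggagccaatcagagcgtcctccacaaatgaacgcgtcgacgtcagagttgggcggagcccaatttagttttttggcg
The capitals in Mcm5, and the first run of them in Mcm6, are longer than 8 bases because 2 words overlap there on opposite strands. A match of letters is a description of these windows, and nothing about binding was measured.

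Summed over the 44 genes, counts-per-million values (CPM, with TMM-scaled library sizes) were lower in ME cells at each age. At E16 the sum was 8741 ± 570.3 CPM in ME cells and 10858 ± 516 CPM in control cells (SD, n = 4 each), 19.5% lower in ME cells. At P14 it was 8598 ± 397 CPM in ME cells and 11631 ± 887 CPM in control cells, 26.1% lower. At 8wk it was 8484 ± 549.5 CPM in ME cells and 11057 ± 924 CPM in control cells, 23.3% lower. No ME library reached the lowest control library of its age. The closest were at 8wk, where the highest ME library had 9138 CPM and the lowest control library 9744 CPM.

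**Figure D1:**
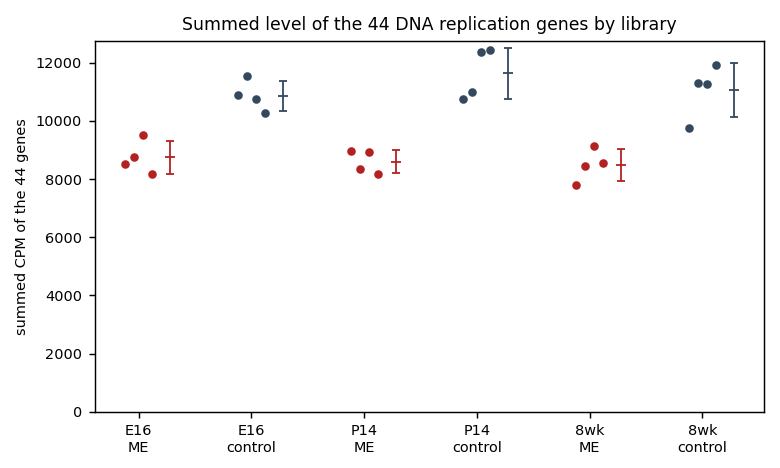
Summed CPM of the 44 genes (y axis, from 0) in each of 24 libraries, by age and genotype (x axis). Points are libraries and the bar beside them is the mean ± SD of 4. ME libraries lie between 7798 and 9515 CPM, and control libraries between 9744 and 12437 CPM.

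Library totals ran from 33891949 to 69295621 counts, so even the lowest count of a member, 80 counts of Fen1 in an 8wk ME library, was above the filter. On the first principal component 3 libraries stood apart from their groups: ME replicate 4 at E16, ME replicate 4 at 8wk and control replicate 1 at 8wk.

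Some markers of the sorted cells and of other cell types were called between genotypes at each age. Of all genes, 13.3%, 12.7% and 14.2% were called higher and 8.47%, 9.35% and 14.3% lower at E16, P14 and 8wk. All 9 genes of the LSK list had counts in every library. Their sum overlapped between genotypes at E16 and P14, with 3 of 9 called higher and 1 lower at each of these ages. At 8wk the sum was 3030 to 3838 CPM in ME libraries and 2071 to 2507 CPM in control libraries, without overlap, with 4 of 9 called higher and 1 lower. At E16 the 7 mature neutrophil genes summed to 42.6 to 1054 CPM in ME libraries and 1120 to 5961 CPM in control libraries (1 of 7 called lower), and 6 megakaryocyte genes to 44.9 to 78.0 CPM in ME libraries and 180 to 451 CPM in control libraries (4 of 6 called lower). At P14 the neutrophil sums were 4.54 to 11.6 CPM in ME libraries and 6.97 to 45.4 CPM in control libraries, with none of the 7 called. Of the 6 megakaryocyte genes 2 were called higher at P14, with sums of 30.9 to 118 CPM in ME libraries and 54.0 to 115 CPM in control libraries. Other lists moved there: 6 of 7 B-lineage genes were called higher at P14, with sums of 38.4 to 326 CPM in ME libraries and 39.9 to 44.1 CPM in control libraries. Of 7 monocyte and macrophage genes 3 were called higher at P14, with sums of 11.2 to 46.1 CPM in ME libraries and 5.99 to 37.8 CPM in control libraries. At 8wk 5 of these 7 were called higher, with sums of 465, 392, 371 and 52.6 CPM in ME libraries and 292, 31.5, 18.3 and 26.6 CPM in control libraries. The neutrophil genes summed to 1468, 1283, 898 and 39.8 CPM in 8wk ME libraries and 846, 32.7, 18.4 and 22.6 CPM in 8wk control libraries, and none was called. So the 8wk libraries that stood apart, ME replicate 4 and control replicate 1, were also those that differed from their groups in these sums. That control had 9744 CPM of replication genes, against 11268 to 11913 CPM in the other 8wk controls. That ME library had 8558 CPM, within the 7798 to 9138 CPM of the other 8wk ME libraries. At E16, ME replicate 4 also stood apart, with neutrophil and monocyte sums of 42.6 and 77.8 CPM. The other E16 ME libraries had 862 to 1054 and 262 to 312 CPM. Its 8174 CPM of replication genes was the lowest of the E16 ME libraries. The part of these markers in the results at any age was not tested.

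At each age 40 of 44 genes had a log2 fold change below 0, against 48.5% of all genes at E16, 47.0% at P14 and 51.3% at 8wk. The median log2 fold change was -0.29 at E16, -0.41 at P14 and -0.43 at 8wk, against 0.02, 0.03 and -0.02 over all 18931 genes tested. At a Benjamini-Hochberg adjusted p under 0.05 in edgeR's quasi-likelihood test, 16 of 44 fell at E16, where 8.47% of all genes did. At P14 29 fell, where 9.35% of all genes did, and at 8wk 32 fell, where 14.3% did. This fit did not pair libraries by replicate number. With the P14 libraries so paired, the P14 calls of Rfc3, Rfc4 and Tk1 were lost. None of the 44 rose at any age, where 13.3%, 12.7% and 14.2% of all genes rose at E16, P14 and 8wk. At an unadjusted p under 0.05, 2 were higher at E16, 1 at P14 and 0 at 8wk. DESeq2 and limma-voom each called 1 higher at E16, Ccne1, and 0 at P14 and 8wk. With a block for replicate number, Ccne1 was called higher at each age. Scaled by library size alone, the E16 split was 1 higher (Ccne1) and 8 lower.

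All 4 ME libraries lay below all 4 control libraries for 21 members at E16 (12.8% of all genes), 31 at P14 (12.4%) and 21 at 8wk (9.04%). The genes called lower at all 3 ages were Orc1, Orc2, Mcm3, Mcm5, Mcm6, Mcm7, Mcm10, Pola2, Rfc2, Rpa1, Rpa2, Lig1, Chaf1b and Rrm1, which makes 14. Another 11 were called at 2 ages and 13 at 1 age. The 6 called at no age were Ccne1, Ccne2, Cdt1, Chaf1a, Fen1 and Pold1.

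Calls near the threshold rested on single libraries. Leaving out 1 library gave 10 to 17 members lower at E16, 21 to 32 at P14 and 21 to 33 at 8wk, with the fewest at E16 without control replicate 2 and at 8wk without control replicate 3. The 9 that kept their E16 call in all 8 such fits were Orc1, Orc2, Mcm5, Mcm7, Mcm10, Pold2, Rfc2, Rrm1 and Rrm2. At P14 the 19 that kept it were Orc1, Cdc6, Mcm3, Mcm4, Mcm5, Mcm6, Mcm7, Mcm10, Cdc45, Pola2, Pold2, Pole, Prim2, Rfc2, Rfc5, Rpa1, Chaf1b, Rrm1 and Rrm2. At 8wk the 19 that kept it were Orc1, Orc2, Gmnn, Mcm5, Mcm6, Mcm10, Gins3, Gins4, Pola2, Prim1, Rfc2, Rfc4, Rfc5, Rpa2, Lig1, Chaf1b, Rrm1, Tk1 and Tyms. Where a call was lost, the adjusted p was between 0.0505 and 0.155 at E16, 0.0508 and 0.169 at P14, and 0.0511 and 0.314 at 8wk.

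**Figure D2:**
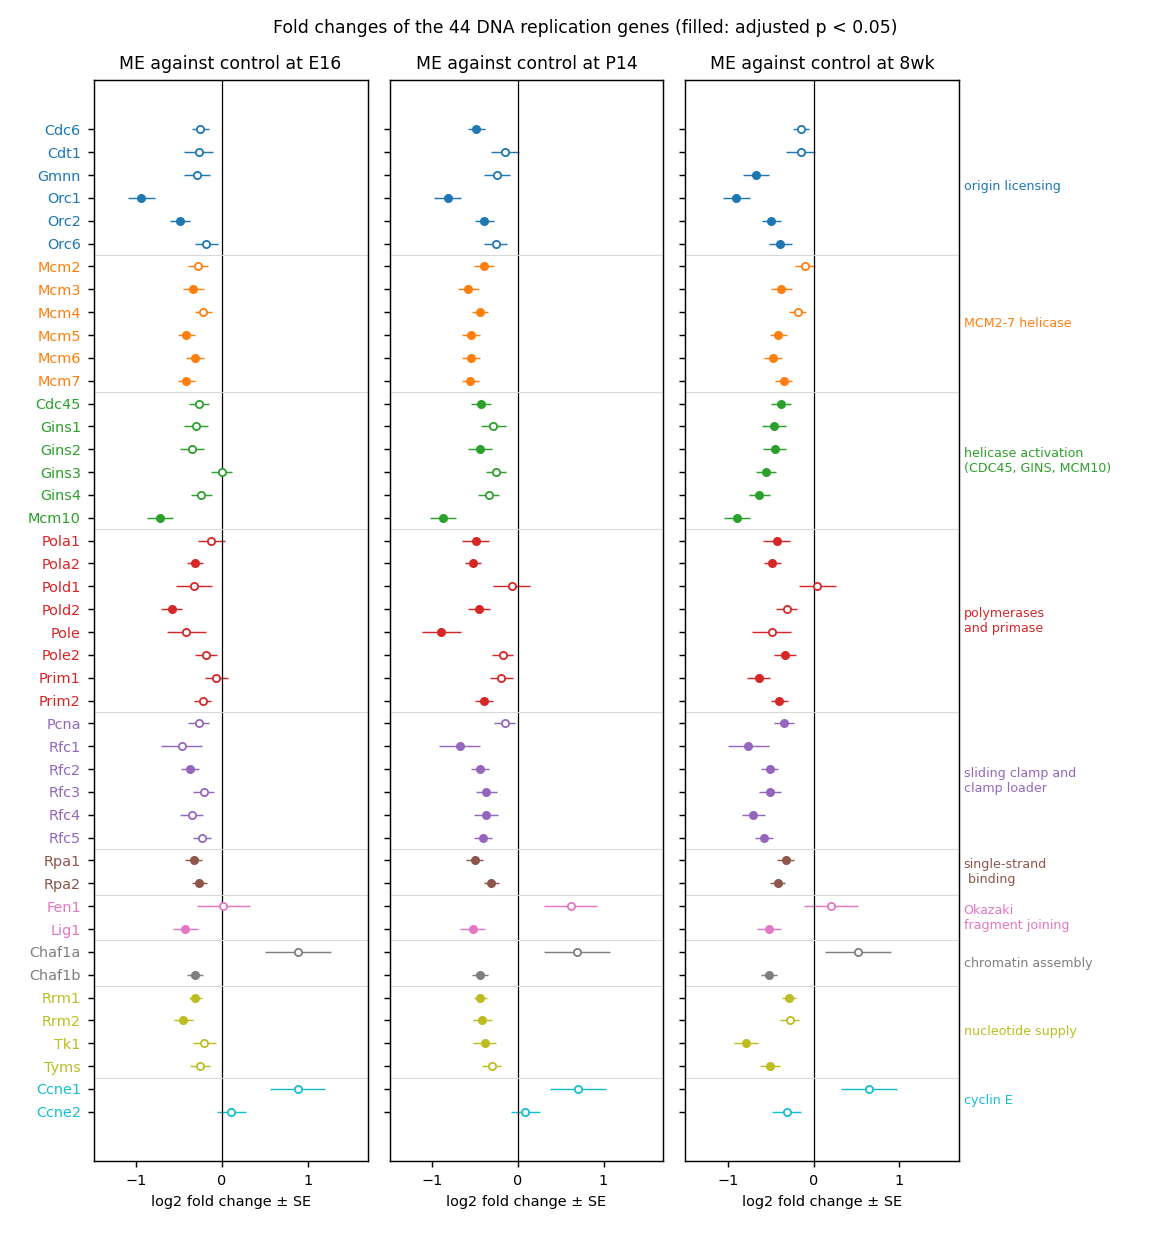
Log2 fold change of each gene, ME against control (x axis, bars are the standard error), at E16, P14 and 8wk, with the genes grouped by role (y axis). Filled points have an adjusted p under 0.05. Nearly all points lie left of 0, Orc1 and Mcm10 lie between -0.72 and -0.94 in all 3 panels, and Ccne1 and Chaf1a lie right of 0 with wide bars.

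Among the origin licensing genes, Orc1 had the largest fold change at each age. Its product is the largest subunit of the origin recognition complex and, unlike the other subunits, is known to cycle, with most of it present in G1. At E16 Orc1 had 21.9, 27.2, 23.8 and 17.6 CPM in ME libraries and 43.9, 44.6, 43.1 and 42.4 CPM in control libraries. At P14 it had 18.9, 17.4, 22.8 and 17.5 CPM in ME libraries and 31.9, 32.9, 35.4 and 35.3 CPM in control libraries. At 8wk it had 25.3, 19.6, 21.3 and 18.4 CPM in ME libraries and 25.6, 43.8, 48.1 and 41.1 CPM in control libraries. The groups did not overlap at any age, and at 8wk only control replicate 1 came near the ME libraries. The log2 fold changes were -0.94 ± 0.16, -0.82 ± 0.16 and -0.91 ± 0.16 (SE), with adjusted p of 0.000208, 0.000700 and 0.000265, and the call held in each of 20 alternatives at each age.

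Orc2, another subunit of the complex, fell less. At E16 it had 71.9, 76.7, 67.5 and 56.4 CPM in ME libraries and 89.1, 98.8, 93.9 and 101 CPM in control libraries, with no overlap. Its log2 fold changes were -0.49 ± 0.11, -0.39 ± 0.11 and -0.50 ± 0.11 at E16, P14 and 8wk, all called. Without P14 ME replicate 2 or P14 control replicate 4 its P14 call was lost, with an adjusted p of 0.0508 and 0.0562. Orc6 was called at 8wk alone, at -0.39 ± 0.13.

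The loaders and their inhibitor differed in which age passed the test. Cdc6, the ATPase that helps place the MCM ring, had 101, 101, 105 and 97.0 CPM in P14 ME libraries and 123, 136, 144 and 164 CPM in P14 control libraries. These did not overlap, and the fold change of -0.49 ± 0.10 was called (adjusted p = 0.00106). It was -0.25 ± 0.10 at E16 and -0.15 ± 0.10 at 8wk, neither called. Gmnn encodes geminin, which binds CDT1 and blocks further loading. It was called at 8wk, with 93.7 ± 9.7 CPM in ME cells and 149 ± 39 CPM in control cells (log2 fold change -0.67 ± 0.15, adjusted p = 0.00231), and it was at -0.29 and -0.24 at E16 and P14, uncalled. Cdt1 itself had -0.27 ± 0.17, -0.15 ± 0.17 and -0.16 ± 0.17 at the 3 ages and was not called. With a correction for GC content Cdt1 was called lower at all 3 ages, at -0.42, -0.48 and -0.44, with adjusted p of 0.00492, 0.00184 and 0.00332, and GC made up 58.6% of its exon bases.

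By CPM per kilobase of exon, the 6 genes of the MCM2-7 ring ranked among the first 8 of the 44, with Rrm2 and Pcna. That length joins all annotated exons of a gene and can exceed that of its main transcript, so the ranking is uncertain. Per kilobase of exon, Mcm6 averaged 216 CPM over the 6 groups, Mcm5 183, Mcm3 175, Mcm7 147, Mcm4 126 and Mcm2 88.1. Of the 6, 4 fell at E16, 6 at P14 and 4 at 8wk, with medians of -0.32, -0.55 and -0.37 on the log2 scale. Mcm7 had 484, 538, 619 and 522 CPM in E16 ME libraries and 728, 789, 715 and 654 CPM in E16 control libraries. At P14 Mcm7 had 632, 553, 593 and 500.1 CPM in ME libraries and 764, 757, 925 and 899 CPM in control libraries. Mcm5 had 705, 609.5, 627 and 581 CPM in P14 ME libraries and 838, 838, 1021 and 995 CPM in P14 control libraries. Neither gene overlapped between genotypes at these ages. Mcm7 was at -0.42 ± 0.10, -0.55 ± 0.10 and -0.35 ± 0.10, and Mcm5 at -0.42 ± 0.10, -0.55 ± 0.10 and -0.41 ± 0.10, called at E16, P14 and 8wk. The 8wk call of Mcm7 was lost without 8wk control replicate 4 (-0.27, adjusted p = 0.0581).

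Mcm3 and Mcm6 were called at all 3 ages as well, but their E16 values of -0.33 ± 0.12 and -0.31 ± 0.10 were near the threshold (adjusted p = 0.0495 and 0.0367). Both E16 calls were lost without E16 ME replicate 1 or 2, or without E16 control replicate 1, 2 or 3, and that of Mcm3 also without E16 ME replicate 4. Mcm2 and Mcm4 were called at P14 only, at -0.40 ± 0.12 and -0.44 ± 0.10. Mcm4 had 412, 392, 442 and 383 CPM in P14 ME libraries and 509, 523, 574 and 609 CPM in P14 control libraries, with no overlap. At 8wk it had 315, 366, 428 and 393 CPM in ME libraries and 442, 462, 350.0 and 455 CPM in control libraries, where control replicate 3 lay among the ME libraries.

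Mcm10 fell at all 3 ages. Its product helps convert the loaded ring into the active helicase. At E16 it had 45.5, 47.3, 60.2 and 44 CPM in ME libraries and 84.8, 85.4, 80.8 and 74.0 CPM in control libraries. At P14 it had 49.9, 38.4, 52.1 and 38.9 CPM in ME libraries and 69.4, 72.4, 94.5 and 92.2 CPM in control libraries. At 8wk it had 37.4, 39.3, 48.3 and 52.2 CPM in ME libraries and 62.3, 92.3, 83.0 and 92.9 CPM in control libraries. ME libraries were below every control library at all 3 ages. The log2 fold changes were -0.72 ± 0.15, -0.87 ± 0.15 and -0.90 ± 0.15, with adjusted p of 0.00142, 0.000208 and 0.000170, and were called in every one of 20 alternatives at each age.

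The partners of the MCM ring in the active helicase, Cdc45 and Gins1 to Gins4, were called at P14 and 8wk. None of these 5 was called at E16, Cdc45 and Gins2 were called at P14, and all 5 at 8wk, with log2 fold changes between -0.39 and -0.64. Gins3 had 23.2, 21.2, 20.7 and 22.9 CPM in E16 ME libraries and 23.2, 21.2, 22.7 and 21.2 CPM in E16 control libraries. At 8wk it had 15.5, 18.1, 20.4 and 18.3 CPM in ME libraries and 22.8, 26.1, 32.2 and 25.6 CPM in control libraries. So the genotypes had like levels at E16 (log2 fold change -0.00 ± 0.12) and did not overlap at 8wk (-0.56 ± 0.12, adjusted p = 0.00152). Gins2 is uncertain, since 67.3% of its exon bases also lie in exons of other genes and the strand setting of the counting was not given.

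**Figure D3:**
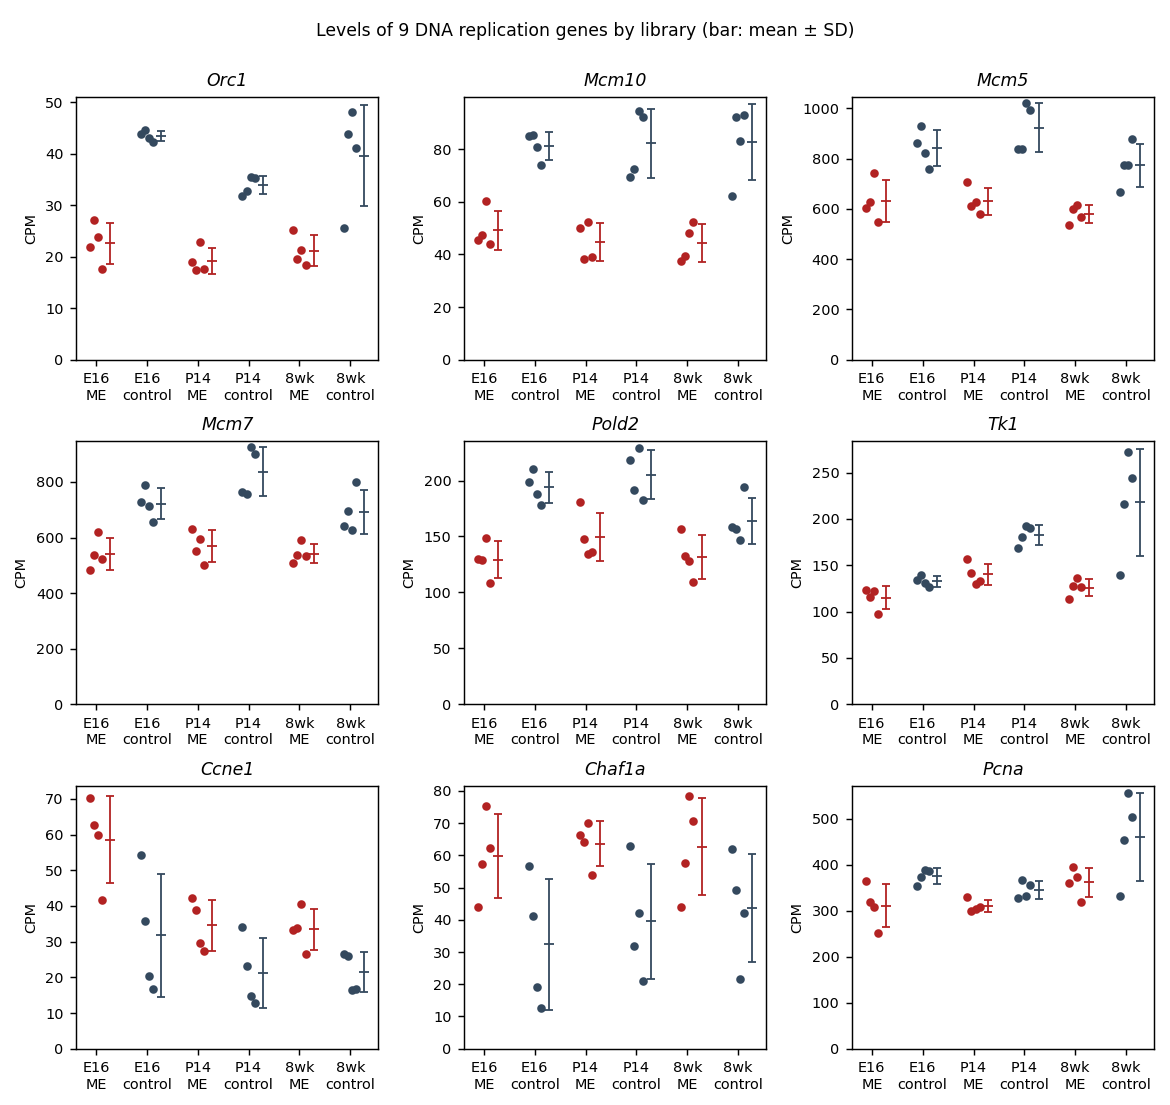
CPM (y axes, from 0) of 9 replication genes in each library, by age and genotype (x axes). Points are libraries and bars are the mean ± SD of 4. Orc1, Mcm10, Mcm5 and Mcm7 are lower in ME libraries without overlap at each age, Tk1 has its largest fold change at 8wk, and Ccne1 and Chaf1a overlap between genotypes.

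Polymerase genes were called at different ages. Pola2, the regulatory subunit of the polymerase that starts each new strand, had 149, 132, 135 and 128 CPM in P14 ME libraries and 178, 175, 218 and 211 CPM in P14 control libraries. The groups did not overlap at any age, and the log2 fold changes were -0.32 ± 0.10, -0.52 ± 0.10 and -0.49 ± 0.10, all called. The E16 call was lost without E16 ME replicate 1 or 2 and without E16 control replicate 2 or 3. Pola1, its catalytic subunit and the 1 member on the X chromosome, was called at P14 (-0.49 ± 0.16) and 8wk (-0.43 ± 0.16). At P14 it had 68.2, 77.1, 107 and 93.1 CPM in ME libraries and 114, 116, 117 and 139 CPM in control libraries, without overlap. The P14 call of Pola1 was lost without P14 ME replicate 1 or 2 or P14 control replicate 4, and its 8wk call without either of 2 ME or any of 4 control libraries.

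Prim1, the catalytic subunit of primase, had 130.1, 117, 114 and 110.4 CPM in E16 ME libraries and 108, 121, 125 and 139 CPM in E16 control libraries. These overlapped almost wholly. At 8wk Prim1 had 97.9, 117, 109 and 104 CPM in ME libraries and 116, 169, 218 and 165 CPM in control libraries, where the lowest control library lay just under the highest ME library. It was called at 8wk (-0.64 ± 0.13, adjusted p = 0.00125). Prim2, the other primase subunit, was called at P14 and 8wk, at -0.40 ± 0.10 in both.

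Pold2, an accessory subunit of the lagging strand polymerase delta, had 129.9, 129, 149 and 108 CPM in E16 ME libraries and 199, 210.1, 188 and 179 CPM in E16 control libraries, with no overlap (-0.59 ± 0.12, adjusted p = 0.00157). It was called at P14 (-0.46 ± 0.12) and not at 8wk (-0.32 ± 0.12). Its catalytic partner Pold1 was not called at any age, at -0.33 ± 0.21, -0.07 ± 0.21 and 0.04 ± 0.21. GC correction changed that: Pold1, with GC at 60.6% of exon bases, was then called lower at all 3 ages, at -0.65, -0.63 and -0.40. Pole, the catalytic subunit of the leading strand polymerase epsilon, was called at P14, with 72.3 ± 11.2 CPM in ME cells and 134 ± 36 CPM in control cells (-0.89 ± 0.23, adjusted p = 0.00770). Its partner Pole2 was called at 8wk only, at -0.34 ± 0.13.

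The clamp loader genes Rfc1 to Rfc5, whose products place the PCNA ring on DNA, fell at P14 and 8wk. All 5 were called at P14 (-0.37 to -0.68) and at 8wk (-0.51 to -0.77), and Rfc2 alone at E16 (-0.37 ± 0.10), where ME libraries of Rfc3, Rfc4 and Rfc5 were also below all control libraries. Rfc5 had 244, 254, 266 and 265 CPM in 8wk ME libraries and 284, 376, 479 and 400.2 CPM in 8wk control libraries. The groups did not overlap (-0.58 ± 0.11, adjusted p = 0.000362). Pcna, the clamp itself, was called at 8wk, with 361 ± 32 CPM in ME cells and 461 ± 95 CPM in control cells (-0.35 ± 0.12, adjusted p = 0.0319), and that call was lost when any of 6 of the 8 libraries was left out. Replicate numbers paired ME and control libraries at P14 by the deviations they shared, and with that pairing in the fit the P14 calls of Rfc3, Rfc4 and Tk1 were lost (adjusted p = 0.0519, 0.0645 and 0.0630), which left 26 of the 29.

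Rpa1 and Rpa2, the genes of the set for subunits of the single-strand binding protein RPA, were called at all 3 ages. Rpa1 had 206, 216, 239 and 207 CPM in P14 ME libraries and 270.0, 298, 328 and 338 CPM in P14 control libraries. It did not overlap at any age, and its log2 fold changes were -0.33 ± 0.10, -0.51 ± 0.10 and -0.33 ± 0.10. Rpa2 was at -0.26 ± 0.09, -0.31 ± 0.09 and -0.42 ± 0.09, and its E16 call was lost when any of 7 of the 8 libraries was left out. Rpa1 lost its E16 call without ME replicate 4 or control replicate 2.

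Lig1, the ligase that seals Okazaki fragments, had 66.5, 72.0, 98.3 and 79.1 CPM in E16 ME libraries and 121, 109.8, 97.3 and 97.6 CPM in E16 control libraries. ME replicate 3 lay among the controls. Lig1 was called at each age (-0.43 ± 0.14, -0.53 ± 0.14 and -0.52 ± 0.14), at E16 with an adjusted p of 0.0364 that was lost when any of 5 libraries was left out. Fen1, the nuclease that trims the flap before sealing, was counted low, at 2.4 to 5.1 CPM on average in the 6 groups. Of its exon bases 84.2% are shared with other genes, so its counts are uncertain, and it was not called between genotypes.

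Chaf1a and Chaf1b, the genes among the 44 for subunits of chromatin assembly factor 1, which loads histones onto new DNA, had fold changes of opposite sign. Chaf1b had 109, 117, 141 and 136 CPM in 8wk ME libraries and 158, 185, 183 and 196 CPM in 8wk control libraries. There was no overlap at any age, and the log2 fold changes were -0.32 ± 0.10, -0.44 ± 0.10 and -0.52 ± 0.10, all called. Chaf1a had 44.1, 57.4, 75.5 and 62.3 CPM in E16 ME libraries and 56.6, 41.2, 19.1 and 12.6 CPM in E16 control libraries. Its controls spread widely, its log2 fold changes of 0.88 ± 0.39, 0.69 ± 0.39 and 0.52 ± 0.39 were not called, and 52.5% of its exon bases are shared with other genes. Without E16 control replicate 1, Chaf1a was called higher at E16 (1.30, adjusted p = 0.0250).

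Ribonucleotide reductase makes the deoxynucleotides, and its large subunit Rrm1 was among the clearest changes at P14. Rrm1 had 721, 719, 827 and 755 CPM in P14 ME libraries and 937, 1007, 1021 and 1136 CPM in P14 control libraries. The groups did not overlap at any age (-0.31 ± 0.08, -0.44 ± 0.08 and -0.29 ± 0.08, all called). Rrm2, the subunit whose level is known to peak in S phase, had 526, 522, 471 and 347 CPM in E16 ME libraries and 640.4, 647, 626 and 643 CPM in E16 control libraries. It was called at E16 and P14 (-0.46 ± 0.11 and -0.42 ± 0.11) and not at 8wk (-0.28 ± 0.11, adjusted p = 0.0586).

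The thymidine supply genes were both called at 8wk. Tk1, the salvage kinase for thymidine, had 114, 127, 136 and 126 CPM in 8wk ME libraries and 139, 216, 273 and 244 CPM in 8wk control libraries. The ranges were apart, though control replicate 1 was close to the ME libraries (-0.79 ± 0.13, adjusted p = 0.000204). At E16 Tk1 had 124, 116, 123 and 97.1 CPM in ME libraries and 135, 139.6, 130.3 and 126 CPM in control libraries, and was not called (-0.21 ± 0.13). Tyms, which makes thymidylate afresh, was called at 8wk (-0.51 ± 0.11) and was at -0.26 ± 0.11 and -0.31 ± 0.11 at E16 and P14, uncalled.

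Neither cyclin E gene was called at any age in the main fit, which had no block for replicate number. Cyclin E with CDK2 drives entry into S phase. Ccne1 had 70.3, 62.7, 59.9 and 41.6 CPM in E16 ME libraries and 54.4, 35.9, 20.3 and 16.6 CPM in E16 control libraries. Only ME replicate 4 and control replicate 1 overlapped. The log2 fold changes were 0.88 ± 0.32, 0.70 ± 0.32 and 0.65 ± 0.32 at E16, P14 and 8wk, and none was called (adjusted p = 0.0563, 0.129 and 0.145). Of 20 alternatives, 9 called Ccne1 higher at E16, 2 at P14 and 1 at 8wk. Its E16 adjusted p ran from 0.00122 to 0.167 over them. With a block for replicate number shared by all groups, Ccne1 was called higher at each age. At each age every ME library was above the control library of the same number. From replicate 1 to 4 Ccne1 fell in both genotypes at E16 and at P14. P14 values were 42.2, 38.9, 29.7 and 27.4 CPM in ME libraries and 34.2, 23.2, 14.8 and 12.7 CPM in control libraries. The labels do not say what the numbers mean. Ccne2 was at 0.11 ± 0.17, 0.09 ± 0.17 and -0.32 ± 0.17, uncalled.

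The test of whether the ME effect differed between ages called none of the 44. Over all genes, 0.0211% were called for P14 minus E16, 0.85% for 8wk minus E16 and 0.301% for 8wk minus P14. The smallest adjusted p of a member was 1.00 for P14 minus E16, 0.113 for 8wk minus E16 (Gins3, -0.56 ± 0.17) and 0.345 for 8wk minus P14 (Cdc6, 0.34 ± 0.14). At an unadjusted p under 0.05 there were 0, 5 and 3 members, against 4.69%, 14.4% and 11.6% of all genes, and DESeq2 and limma-voom called none. The calls that differ between ages, such as those of Gins3, Prim1, Gmnn and Cdc6, are therefore not shown to differ. The 8wk value rests on control replicate 1 here: without it, Gins3, Gins4, Prim1, Rfc5 and Tk1 were called for 8wk minus E16, with differences of -0.46 to -0.75 and adjusted p of 0.00407 to 0.0361, and Tk1 for 8wk minus P14 (-0.57, adjusted p = 0.0271). For P14 minus E16 the members with the smallest p were Cdc6 (-0.23 ± 0.14) and Pola1 (-0.37 ± 0.22).

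Control cells alone were compared over age, with liver at E16 and marrow later, so that age and tissue cannot be told apart in comparisons with E16. At 8wk against P14, Gmnn, Prim1, Pole2, Pcna, Rfc3, Rfc4, Tyms and Ccne2 were called higher (8 of 44, against 7.01% of all genes). Cdc6, Cdt1, Mcm2, Mcm4 and Pola2 were called lower (5 of 44, against 5.58%). Pola2 had 128, 145, 144 and 169 CPM in 8wk control libraries and 178, 175, 218 and 211 CPM in P14 control libraries, with no overlap (-0.42 ± 0.10, adjusted p = 0.00783). Mcm4, with the 8wk and P14 control values given above, was the next by p (-0.37 ± 0.10, adjusted p = 0.0164). All 5 genes called lower were below every P14 control library in all 4 at 8wk, whereas the 8 called higher overlapped in at least 1 library.

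These calls were thin. Scaled by library size alone, 4 were higher and 8 lower, and with GC correction 1 and 5. Leaving out 1 library gave between 0 and 13 members higher and between 1 and 7 lower, and Pola2 was the 1 member called in every such fit. Without P14 control replicate 1, P14 control replicate 3 or 8wk control replicate 3, none was called higher, and without 8wk control replicate 1, 13 were. The mean ratio of Gmnn to Cdt1 CPM was 1.11 ± 0.23 in E16, 1.13 ± 0.37 in P14 and 1.68 ± 0.23 in 8wk ME libraries (SD, 4 each). It was 1.14 ± 0.24, 1.17 ± 0.30 and 2.56 ± 1.27 in control libraries of the same ages.

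**Figure D4:**
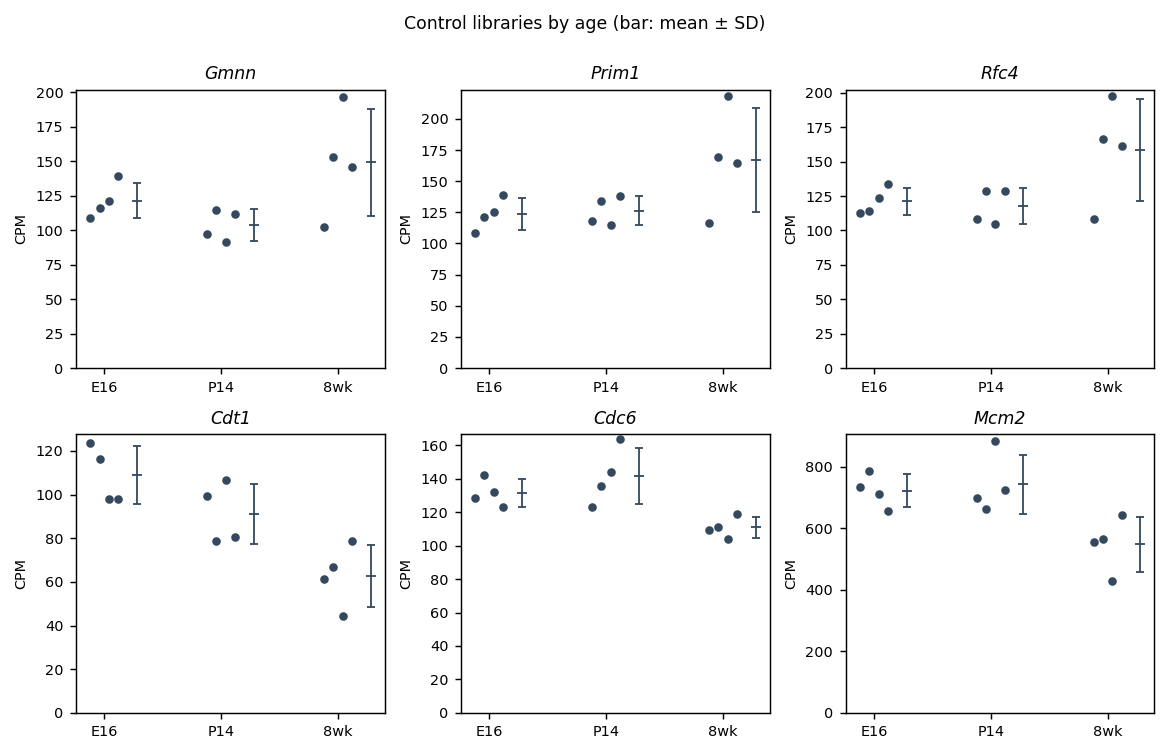
CPM (y axes, from 0) of 6 replication genes in control libraries at E16, P14 and 8wk (x axes). Points are libraries and bars are the mean ± SD of 4. Cdt1, Cdc6 and Mcm2 are lower in all 8wk libraries than in all P14 libraries, while Gmnn, Prim1 and Rfc4 are higher in 3 of the 4 8wk libraries and not in the lowest one.

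At P14 against E16, Chaf1b and Tk1 were called higher (2 of 44, against 7.61% of all genes) and Fen1 and Rrm2 lower (2 of 44, against 7.51%). Rrm2 had 477, 533, 437 and 505 CPM in P14 control libraries and 640.4, 647, 626 and 643 CPM in E16 control libraries, without overlap (-0.39 ± 0.11, adjusted p = 0.0186). Tk1 had 169, 180.3, 193 and 190.0 CPM in P14 control libraries and 135, 139.6, 130.3 and 126 CPM in E16 control libraries, also without overlap (0.46 ± 0.13, adjusted p = 0.0207). Each of the 4 calls was lost when 1 of several libraries was left out, with P14 control replicate 3 ending all of them. At 8wk against E16, Pola1, Prim1, Rfc2, Rfc4, Rfc5, Rpa2, Chaf1b and Tk1 were called higher (8 of 44, against 12.5%) and Cdt1, Mcm2, Pold1 and Fen1 lower (4 of 44, against 10.8%). Of these 12, Chaf1b (0.45 ± 0.10), Tk1 (0.71 ± 0.13), Cdt1 (-0.79 ± 0.17) and Pold1 (-0.86 ± 0.21) held in every alternative. With GC correction this split was 6 higher and 7 lower, and for P14 against E16 library size alone gave 6 higher and 2 lower. The 3 age comparisons share control libraries, as do those of ME effects.

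Genes around the 44 were read from lists of the same pathway. Of all genes, 13.3%, 12.7% and 14.2% were called higher and 8.47%, 9.35% and 14.3% lower at E16, P14 and 8wk, and the medians were 0.02, 0.03 and -0.02 on the log2 scale. Of 14 other origin and firing factors, 4, 4 and 3 were called higher at E16, P14 and 8wk, and 3, 5 and 6 lower, with medians of -0.14, -0.14 and -0.27. The higher ones were led by Donson, whose product helps bring GINS to origins, and Mcmbp, which binds MCM proteins and is known to guard newly made MCM subunits. Donson had 25.1, 25.9, 23.3 and 14.0 CPM in E16 ME libraries and 5.44, 3.72, 2.75 and 3.47 CPM in E16 control libraries. Its log2 fold changes were 2.52 ± 0.31, 2.54 ± 0.31 and 2.55 ± 0.31 at the 3 ages. Mcmbp had 138, 131, 119 and 58.5 CPM in E16 ME libraries and 28.3, 23.2, 18.7 and 21.9 CPM in E16 control libraries, with 2.28 ± 0.30, 2.45 ± 0.30 and 2.51 ± 0.30. Mcm9, which with MCM8 forms a repair helicase, was at 1.22 ± 0.17, 1.18 ± 0.17 and 1.08 ± 0.17. All of these were called and none of the 3 overlapped between genotypes at E16.

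Of 22 other fork genes, 0, 1 and 1 were called higher and 2, 7 and 9 lower at E16, P14 and 8wk, with medians of -0.22, -0.27 and -0.31. The lower share at E16 was near that of all genes. Rnaseh2a, the catalytic subunit of RNase H2, fell at each age (-0.47 ± 0.11, -0.51 ± 0.11 and -0.67 ± 0.11). Pole3 and Wdhd1 were called at P14 and 8wk. Of 31 other nucleotide supply genes, 4, 2 and 3 were higher and 16, 16 and 17 lower, with medians of -0.35, -0.35 and -0.32. The folate and purine enzymes Shmt1, Mthfd1 and Gart led, all called at all 3 ages, with log2 fold changes between -0.41 and -0.82.

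Of 17 checkpoint genes, 3, 3 and 2 were higher and 4, 10 and 7 lower at the 3 ages, with medians of -0.15, -0.33 and -0.31. Cdc25a, the phosphatase that frees CDK2 for S phase entry, had 85.9, 88.2, 78.8 and 61.6 CPM in E16 ME libraries and 35.5, 24.1, 18.4 and 20.5 CPM in E16 control libraries. It was called at every age (1.67 ± 0.22, 1.72 ± 0.22 and 1.60 ± 0.22), while the nuclease Exo1 (-0.32 to -0.68) and the clamp subunit Hus1 (-0.32 to -0.60) were called lower. Of 13 chromatin copying genes, none was called higher and 2, 6 and 5 were called lower, with medians of -0.22, -0.28 and -0.31, among them Ssrp1, a subunit of the histone chaperone FACT, at all 3 ages (-0.42 to -0.63), Nasp at E16 and 8wk and Mms22l at P14.

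Of 28 tested G1/S regulators, 10, 11 and 7 were called higher and 3, 3 and 3 lower, with medians of 0.18, 0.09 and 0.25. E2f5 (2.48 ± 0.36, 3.01 ± 0.37 and 1.86 ± 0.35) and Cdkn1b, the CDK inhibitor p27 (0.92 ± 0.22, 1.55 ± 0.22 and 0.65 ± 0.22), were higher at all 3 ages, and Tfdp2 at E16 and P14. The 8wk call of Cdkn1b was lost without 8wk ME replicate 2 or 4 or 8wk control replicate 1 or 2. E2f1 had 67.5, 64.9, 29.5 and 18.1 CPM in E16 ME libraries and 12.1, 10.3, 10.6 and 11.9 CPM in E16 control libraries, and was called higher at each age (2.00 ± 0.46, 2.53 ± 0.47 and 2.57 ± 0.47). ME replicate 4 had the lowest E2f1, Donson, Mcmbp and Cdc25a level among ME libraries at each age.

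Of 19 genes of mitosis and proliferation, none was called higher and 10, 12 and 12 were called lower, with medians of -0.38, -0.47 and -0.45. Cdc20 (-0.52 ± 0.11, -0.70 ± 0.11 and -0.48 ± 0.11), Mybl2 (-0.83 ± 0.17, -0.87 ± 0.17 and -0.52 ± 0.17) and Kif20a (-0.59 ± 0.18, -0.87 ± 0.18 and -0.60 ± 0.18) led at all 3 ages. Their summed level was 2708 ± 288 CPM in ME cells and 3425 ± 116 CPM in control cells at E16. It was 2475 ± 120.2 CPM in ME cells and 3362 ± 219.7 CPM in control cells at P14, and 2581 ± 100.3 CPM in ME cells and 3368 ± 301 CPM in control cells at 8wk. The proliferation marker Mki67 was called at 8wk alone (-1.14 ± 0.38). The calls of Kif20a at E16 and 8wk and of Mybl2 and Mki67 at 8wk were each lost when 1 of several libraries was left out. So were those of Exo1, Hus1, Nasp and Ssrp1 at E16. The P14 call of Ssrp1 was lost without P14 ME replicate 1, 2 or 4 or P14 control replicate 3 or 4. That of Pole3 at P14 was lost without P14 ME replicate 2 or P14 control replicate 4, and that of Hus1 at P14 without P14 control replicate 4.

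**Figure D5:**
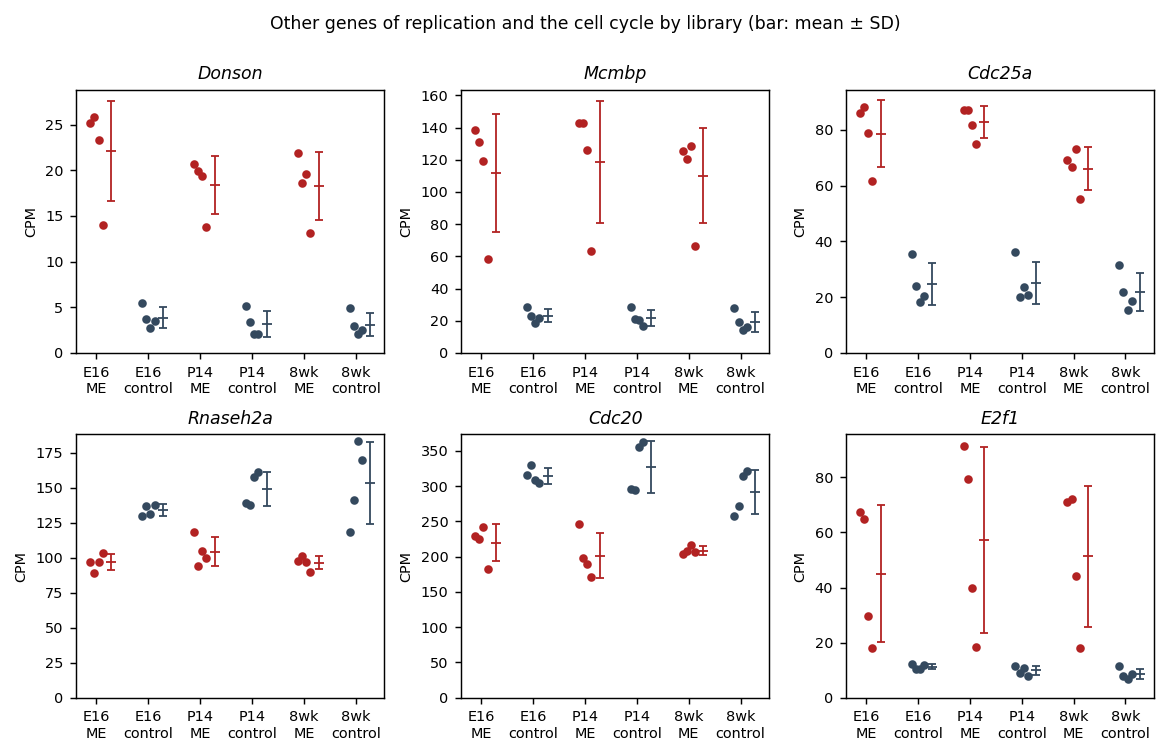
CPM (y axes, from 0) of 6 genes outside the 44, in each library by age and genotype (x axes). Points are libraries and bars are the mean ± SD of 4. Donson, Mcmbp, Cdc25a and E2f1 are higher in all ME libraries than in all control libraries of their age, and Rnaseh2a and Cdc20 are lower.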

How the data were processed

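The 24 libraries, 4 in each of 6 groups named in the sample titles, came as 1 deposited table of raw counts by gene. The authors used STAR 2.7.9a, featureCounts 2.0.3 (Subread) and build GRCm38, per the submitters' processing notes. Annotation release and strand setting are not given in the sources used here. Total RNA was prepared with RNeasy Plus and Clontech kits, per the labels. The labels do not say that replicates are separate animals, so the p-values reflect spread among these libraries, possibly technical. The table had 55774 lines and 55487 distinct identifiers, and the 168 identifiers on several lines, with equal counts, entered once. Even numbers made up a median of 63.6% of counts from 1 to 20, a pattern seen if each mate is counted, and counts are then not independent.

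After filterByExpr (minimum count 10), 18931 genes remained. One edgeR 4.0.16 model in R 4.3.3 held all libraries, with TMM factors, a mean for each group and the robust quasi-likelihood test. Benjamini-Hochberg adjustment covered all genes in each of 9 comparisons, and genes under 0.05 were called. CPM used TMM-scaled totals. Standard errors are those of the fold changes. The script was tested on simulated data. Exon lengths, sharing and GC content were from GENCODE M21, which held 55141 of the identifiers. Promoters were from RefSeq (GRCm38.p6), with several for 5 members and no entry for 9.

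The members and the lists of related and marker genes were chosen with earlier results of these data known. Values by library are given for the 5 members with the smallest adjusted p in each ME comparison, the 2 smallest in each difference of ME effects, in control 8wk against P14 and in control P14 against E16, and 1 for any role left without. Where a difference had tied adjusted p-values of 1.00, the unadjusted p decided. Gmnn, Pcna, Pole and Chaf1a were given CPM values in addition, chosen after these were seen. Up to 3 genes are named per related list by smallest adjusted p, plus E2f1 and Mki67. Alternatives were DESeq2 1.42.0, limma-voom (limma 3.58.1), other scalings and filters, GC correction, a covariate of Y-linked genes, only the groups compared, replicate blocks and leaving out each library.

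Pairing by replicate number was checked. Deviations of same-numbered ME and control libraries from their group means correlated at 0.187, 0.143, 0.137 and 0.232 at P14, and since every pair was over 0.1 those libraries were taken as paired, from the data and not the labels. The P14 values and calls given are still those of the fit without this pairing, unless the pairing is named. With it the P14 calls of Rfc3, Rfc4 and Tk1 were lost. Correlations were -0.04 to 0.00 at E16 and -0.09 to 0.12 at 8wk, and libraries of these ages were not taken as paired. The check set ME against control libraries of the same age, so it cannot show whether a number has a meaning within a genotype or between ages. On the first principal component, values rose at every step from replicate 1 to 4 in both P14 groups and in 8wk ME cells. In the other groups they did not rise at every step. Whether the numbers mark an order of handling was not tested. No libraries had identical counts.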

Additional observations from a re-analysis of the deposited data

Results flagged for a closer look

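Among 126 sets of 4 libraries (20 members and the summed level, in 6 groups), 1 held a library far from the other 3. Pola1 had 139 CPM in P14 control replicate 4, against 114 to 117 CPM in the other P14 controls. Chance flags about 1 in 20 such sets.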

How the results depend on the processing

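For ME against control, members higher at E16 numbered 0, and 1 with library size only, GC correction, DESeq2, limma-voom, a filter of at least 1 CPM in 4 libraries, the replicate block or the block within P14, and 0 to 2 with a library left out. Members lower at E16 numbered 16, but 8 with library size only and 9 with no filter, and 10 to 17 with a library left out. Over all settings other than a library left out, they ran from 8 to 23 at E16, 23 to 32 at P14 and 17 to 34 at 8wk. At P14, 29 were lower, 21 to 32 with a library left out, and members higher were 0, 1 with the replicate block and 0 to 1 with a library left out. With the pairing block within P14, 26 were lower. At 8wk, 32 were lower, 17 with only the groups compared and 21 to 33 with a library left out, and members higher were 0, or 1 with the replicate block. For control 8wk against P14, members higher (8) became 5 with DESeq2 size factors, 4 with library size only or limma-voom, 3 with no filter, 1 with GC correction, 0 with only the groups compared, 18 without the 3 libraries that stand apart and 0 to 13 with a library left out. Members lower (5) became 8 with library size only, 1 with only the groups compared and 1 to 7 with a library left out. For control P14 against E16, members higher (2) became 6 with library size only, 4 with DESeq2 or the replicate block, 1 with no filter, 5 with only the groups compared, 7 without the 3 libraries and 0 to 8 with a library left out. Members lower (2) became 1 with no filter and 0 to 2 with a library left out. For control 8wk against E16, members higher (8) became 5 with DESeq2 size factors or the Y-linked covariate, 4 with only the groups compared, 17 without the 3 libraries and 3 to 16 with a library left out, and members lower (4) became 7 with GC correction and 2 to 4 with a library left out. Members called for 8wk minus E16 became 6 without the 3 libraries and 0 to 5 with a library left out, for 8wk minus P14 2 and 0 to 1, and for P14 minus E16 stayed at 0. The alternative without the 3 libraries and the block within P14 were chosen after seeing the data. The cause of these shifts was not tested, beyond the fewer samples or genes that some alternatives hold.

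Of the single members, 1 turned round: Pold1 at 8wk, uncalled at 0.04, was called lower with GC correction (-0.40, adjusted p = 0.00972, 0.00972 to 1.00 over its 20 alternatives). The calls of Orc1, Mcm5, Mcm10 and Rfc2 held in every alternative at all 3 ages. In all, 8 of 16 calls held at E16, 19 of 29 at P14 and 17 of 32 at 8wk. Over all genes, the share of calls that were higher at E16 was 61.1%, and 74.6% with library size only, at P14 57.5%, 70.5% with library size only and 46.9% with GC correction, and for control 8wk against P14 55.7% and 43.2% with library size only. Among the related lists at E16, other fork factors lower numbered 2, but 7 with GC correction, and checkpoint genes lower numbered 4, but 0 with library size only. Counts that are mostly even, an unknown strand setting and 4 libraries a group limit what small changes of low or overlapping genes (Fen1, Gins2, Chaf1a) can show.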

Other observations

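Subunits that work in fixed complexes differed in CPM per kilobase of exon. The length joins all annotated exons of a gene and can exceed that of its main transcript, so the order of genes by this measure is uncertain. Per kilobase of exon and averaged over the 6 groups, Rrm2 had 178 CPM and Rrm1 79.6 CPM. The joined exons hold 2771 bases for Rrm2 and 11012 for Rrm1, and CPM not divided by length was higher for Rrm1 in every library. Of the clamp loader, Rfc4 had 73.9 CPM, Rfc5 63.8, Rfc2 51.1, Rfc3 18.6 and Rfc1 7.42. Of the origin recognition complex, Orc6 had 35.2 CPM, Orc2 20.9 and Orc1 8.62. The catalytic polymerase genes were below their partners in each pair: Pola1 11.4 and Pola2 17.6, Pold1 53.4 and Pold2 85.6, Pole 8.03 and Pole2 17.8. Pcna had 150.2 CPM. Fen1 was lowest of the 44, at 1.49 CPM, and 84.2% of its exon bases overlap another gene in GENCODE M21, so its level is uncertain.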
